A study of Mus musculus with 9 samples.

Results

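The calcium-activated phosphatase calcineurin, its NFAT targets and the kinase CaMKII form a hypertrophic signalling pathway of the heart, and 10 of its genes were described here out of 15779 genes in the deposited tables. The genes were taken by symbol: Rcan1, the catalytic calcineurin subunits Ppp3ca and Ppp3cb, the regulatory subunit Ppp3r1, the transcription factors Nfatc1, Nfatc2, Nfatc3 and Nfatc4, and the kinase subunits Camk2d and Camk2g. All 10 were in the tables, and all 10 passed the filter on low values. The study measured polyA RNA of adult C57BL/6J mouse hearts in 9 libraries, 3 per group. The first group was wild type given saline. The second was homozygous for the Mybpc3 R946X allele (Mybpc3R946X/R946X), a premature stop codon, and was given saline. The last had the same homozygous genotype and received a high dose of exABE8e, a name that the labels do not define. The study's design text describes adenine base editors, enzymes that turn A into G at a guided site, carried by an AAV9 virus and meant for expression in cardiomyocytes only. No treatment group of wild-type mice and no mutant group with an empty virus was among the libraries used here, and the labels give no dose value, sex or exact age. Each group was labelled as separate hearts by replicate number only, so the p-values measure the spread between these libraries.

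Calcineurin is switched on by calcium-loaded calmodulin. It removes phosphate groups from NFAT proteins, which then enter the nucleus and act with partners such as GATA4 and MEF2 on genes of cardiac growth. NFAT kinases such as GSK3 and DYRK enzymes send NFAT back to the cytoplasm. CaMKII acts in parallel: it phosphorylates class II histone deacetylases, which releases MEF2. RCAN1 binds calcineurin and can restrain it, and a short RCAN1 transcript starts from an internal promoter that is itself driven by NFAT, so Rcan1 RNA is widely read as an output of the pathway. Most control of calcineurin, NFAT and CaMKII proteins lies in calcium binding, phosphorylation and location, which RNA levels do not show.

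Values below are as deposited: whole numbers on a scale on which each library sums to between 999152 and 999382. Whether they are scaled for transcript length is not stated, so levels of different genes are not compared. Read depth is unknown, so no counting error is given and the 3 libraries per group set the precision. Between 14151 and 14934 genes had a value above 0, and mitochondrial transcripts took 17.02% to 24.14% of the total. Summed over 8 cardiomyocyte markers, values were 46262 to 54966 in wild type, 47459 to 58415 in saline mutant and 50238 to 54263 in treated mutant hearts. Xist, an RNA of the inactive X chromosome, was found in 1 library of each group, wild type 1, saline mutant 3 and treated mutant 1. The library labelled treated mutant 1 stood apart from the others because it held both Xist (39) and the Y-linked Ddx3y (38). Mybpc3, the mutated gene, checked the labels: wild-type hearts read 1510, 1795 and 2039, saline mutants 133, 142 and 186, and treated ones 1024, 1374 and 1332. As a share of the mean in wild type this was 8.63% ± 1.59 (SD, n = 3) in saline mutants and 69.8% ± 10.7 after treatment. On bulk tissue, fewer cells of a type and less RNA per cell cannot be told apart.

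Rcan1 was the gene with the largest difference among the 10 between saline mutant and wild-type hearts. Rcan1 (ENSMUSG00000022951.16) lies on the minus strand of chromosome 16 from 92391953 to 92470867 on GRCm38 (the build of all positions given here), has 7 annotated transcripts and overlaps the antisense gene Gm46555. Its RefSeq promoter entries on GRCm38.p6 hold an upstream start at 92466169 and an internal start at 92400078. The 250 bases before each start are printed because Rcan1 is the member whose RNA changed most and the gene-level value sums both starts. They run 5′ to 3′ on the minus strand, and capitals mark matches to the NFAT core (GGAAA or, on the other strand, TTTCC), the cAMP response element (CRE, TGACGTCA, the same on both strands) and the AP-1 motif (TGACTCA or TGAGTCA).
Rcan1 upstream start, chr16:92466170-92466419: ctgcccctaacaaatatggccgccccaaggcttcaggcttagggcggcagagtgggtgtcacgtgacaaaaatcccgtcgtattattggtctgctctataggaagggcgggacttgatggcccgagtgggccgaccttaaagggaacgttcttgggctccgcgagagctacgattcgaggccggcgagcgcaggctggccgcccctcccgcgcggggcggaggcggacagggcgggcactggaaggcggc
Rcan1 internal start, chr16:92400079-92400328: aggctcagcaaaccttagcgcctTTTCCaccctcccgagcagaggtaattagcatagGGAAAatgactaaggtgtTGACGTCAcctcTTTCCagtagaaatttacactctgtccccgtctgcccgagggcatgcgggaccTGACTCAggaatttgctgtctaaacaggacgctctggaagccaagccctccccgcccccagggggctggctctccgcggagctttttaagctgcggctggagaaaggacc
The window of the upstream start held none of these letters. The window of the internal start held 3 NFAT cores, whose first bases lie 227, 193 and 163 bases before the start, a CRE at 175 and an AP-1 match at 110, with no overlap between matches. Among 32851 RefSeq windows of the same length, 55.57% held at least 1 NFAT core, 6.39% held 3 or more, 1.55% held the CRE and 4.46% held the AP-1 motif. RefSeq windows matched 7 of the 10 genes. Those of Nfatc4, Ppp3cb and the first start of Nfatc2 also held 3 NFAT cores, those of Camk2d, the second start of Nfatc2 and the first start of Nfatc3 held 1, and those of Ppp3r1 and the second start of Nfatc3 held none. A match is a run of letters, not a bound site, and the deposited gene-level values do not say which Rcan1 start was used.

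The Rcan1 values were 69, 81 and 66 in wild type. They were 311, 213 and 191 in the saline mutants, then 633, 366 and 163 in the treated ones. Every mutant heart, treated or not, lay above every wild-type heart. The treated hearts spread widely: treated 1 was the highest of all 9 libraries and treated 3 was the lowest of the 6 mutant hearts. Relative to the wild-type mean of 72.0 ± 7.94 (SD, n = 3), saline mutants were 4.32, 2.96 and 2.65 times as high, and treated mutants 8.79, 5.08 and 2.26 times. Rcan1 rose in saline mutants by 1.69 on the log2(value + 1) scale (SE 0.178, 95% interval 1.28 to 2.09, limma with Benjamini-Hochberg adjustment, adjusted p = 0.00101), and it passed in 17 of 17 alternative settings (adjusted p between 0.000145 and 0.026). Of 7 fibroblast markers, 2 were called in the same comparison (Col1a1 and Col1a2, both higher), where 7.7% of all 13632 genes tested were called. The summed value of the 7 was 2054 to 3165 in saline mutants against 1342 to 1777 in wild type. The part of fibroblasts in the Rcan1 difference was not tested.

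In treated mutants Rcan1 was not shown to be closer to wild type. Treated minus saline mutant was 0.52 (SE 0.424, 95% interval -0.44 to 1.49, adjusted p = 0.791), so the interval holds both a fall and a rise. Without treated mutant 1 this difference was 0.068, and without the 3 libraries with Xist it was -0.075. Treated mutant minus wild type was 2.21 (SE 0.426, 95% interval 1.22 to 3.21, adjusted p = 0.074, 3 of 3 treated hearts above all wild-type hearts), which missed the threshold of 0.05. It passed in 3 of 17 settings: with all 3 groups in one fit (adjusted p = 0.0216), with a prior estimated over every gene (0.0259) and without treated mutant 3 (0.0126). Across the 17 settings the adjusted p reached 0.23, and without treated mutant 1 the difference was 1.75 (adjusted p = 0.0928). The authors' deposited table gave Rcan1 log2 fold changes of 1.68 (SE 0.241), 0.74 (SE 0.615) and 2.43 (SE 0.567) for the same 3 comparisons. The comparisons share groups: saline mutants enter the first and the second, and wild type enters the first and the last.

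**Figure D1:**
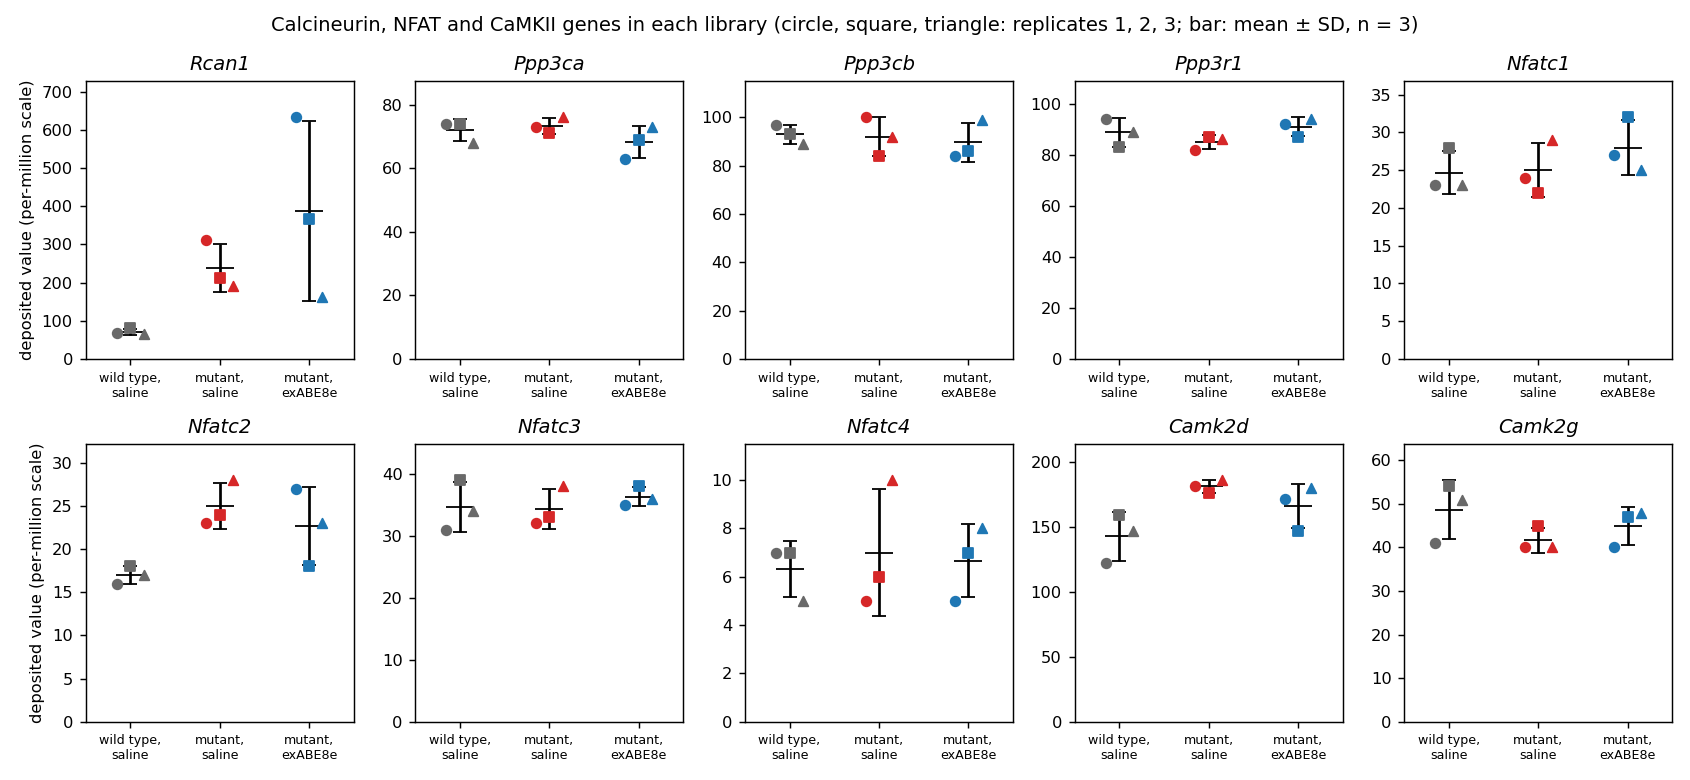
Deposited value (y axis, per-million scale, starting at 0 and scaled for each gene) of the 10 genes in wild type given saline, mutant given saline and mutant given exABE8e; each point is a library and bars show mean ± SD of 3. Rcan1 lies between 66 and 81 in wild type and between 163 and 633 in the 6 mutant hearts, while the points of the calcineurin subunits overlap between groups.

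None of the calcineurin subunits was called between any pair of groups. Ppp3ca, a catalytic subunit (chromosome 3, 136670124 to 136937727), read 74, 74 and 68 in wild type, 73, 71 and 76 in saline and 63, 69 and 73 in treated mutants. Ppp3cb, the catalytic subunit known for its part in the hypertrophic response of the mouse heart (chromosome 14, 20499364 to 20546573), read 97, 93 and 89, then 100, 84 and 92, then 84, 86 and 99. Ppp3r1, the calcium-binding regulatory subunit (chromosome 11, 17159263 to 17200375), read 94, 83 and 89, then 82, 87 and 86, then 92, 87 and 94. No pair of groups was separated for any of the 3 genes. Saline mutant minus wild type was 0.03 for Ppp3ca (95% interval -0.19 to 0.24), -0.02 for Ppp3cb (-0.25 to 0.22) and -0.06 for Ppp3r1 (-0.28 to 0.16) on the log2 scale. Treated minus saline mutant was -0.10 for Ppp3ca (-0.34 to 0.14), -0.04 for Ppp3cb (-0.30 to 0.23) and 0.10 for Ppp3r1 (-0.12 to 0.32). These intervals leave room for differences between -0.34 and 0.32, and a missed threshold does not show that the levels were the same. The sum of Ppp3ca and Ppp3cb was 165 ± 7.21 in wild type, 165 ± 9.29 in saline mutants and 158 ± 12.8 in treated mutants (SD, n = 3). Their ratio was 0.774 ± 0.0186, 0.8 ± 0.0618 and 0.763 ± 0.0344; it is comparable between libraries, not as a ratio of molecules. Ppp3r1 shares bases with Wdr92 on the same strand, and reads there may have gone to either gene.

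Among the NFAT factors, Nfatc2 was the member that passed the test. Nfatc2 (chromosome 2, 168476410 to 168601657), well known from activated T cells and also active in heart muscle, read 16, 18 and 17 in wild type, 23, 24 and 28 in saline and 27, 18 and 23 in treated mutants. The saline mutants all lay above wild type, and treated mutant 2 lay at the top of the wild-type range. Nfatc2 rose in saline mutants by 0.53 (SE 0.126, 95% interval 0.24 to 0.81, limma, adjusted p = 0.0385). This call was lost in 8 of 17 settings: without the 3 libraries with Xist (difference 0.41, adjusted p = 0.192), in 1 fit of all groups (0.0626), with the replicate block (0.104), without any of the 3 wild-type hearts (0.0741 to 0.131) and without saline mutant 2 (0.133) or 3 (0.0976). Across all settings its adjusted p ranged from 0.018 to 0.192. Treated minus saline mutant was -0.15 (-0.53 to 0.23, adjusted p = 0.851) and treated mutant minus wild type 0.38 (0.01 to 0.74, adjusted p = 0.378). The authors' deposited table gave an Nfatc2 log2 fold change of 0.48 (SE 0.381, unadjusted p = 0.207) between saline mutant and wild type.

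Levels of markers of other cell types are given beside Nfatc2. The 7 fibroblast markers summed to 1578 to 2001 in treated mutants, beside the ranges of the saline groups given above. The 8 macrophage markers summed to 329 to 433 in wild type, 346 to 669 in saline and 297 to 440 in treated mutants, overlapping between groups, and 0 of 8 were called by limma in any comparison. Saline mutant 3 held the highest Nfatc2 (28), fibroblast sum (3165) and macrophage sum (669) of all libraries. Treated mutant 1 had the next highest Nfatc2 (27), with a fibroblast sum of 1778 and the lowest macrophage sum (297). Wild type 1 had the lowest Nfatc2 (16), with a fibroblast sum of 1777. Other marker sums also separated the saline groups. The 8 smooth-muscle and pericyte markers summed to 1527 to 1865 in wild type, 1274 to 1524 in saline and 1262 to 1548 in treated mutants. The 5 blood markers summed to 104 to 313, 69 to 85 and 140 to 158. In saline mutant against wild type 1 of the 8 (Acta2) and 2 of the 5 (Hba-a2 and Alas2) were called, against 7.7% of all genes. The part of these cells in the Nfatc2 difference was not tested. T-cell markers were near 0: over the 6 of 8 that were in the tables the sum was 1 to 4 in every library, and Cd3g, Cd2, Cd8a, Lck and Cd247 were each listed at 0 in at least 1 library.

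The other NFAT factors did not differ beyond their spread. Nfatc1, a factor of heart valve and endocardial development (chromosome 18, 80606205 to 80713071), read 23, 28 and 23 in wild type, 24, 22 and 29 in saline and 27, 32 and 25 in treated mutants. Nfatc3, which in mice is needed for calcineurin-driven cardiac growth (chromosome 8, 106058840 to 106130537), read 31, 39 and 34, then 32, 33 and 38, then 35, 38 and 36. Nfatc4, the family member first linked to GATA4 in the heart (chromosome 14, 55823144 to 55833943), was low, at 7, 7 and 5, then 5, 6 and 10, then 5, 7 and 8. All 3 groups overlapped for each of these genes. Saline mutant minus wild type was 0.02 for Nfatc1 (95% interval -0.31 to 0.34), -0.01 for Nfatc3 (-0.30 to 0.28) and 0.09 for Nfatc4 (-0.47 to 0.65). Nfatc4 had the widest interval of them. Within the summed value of Nfatc1 to Nfatc4, the Nfatc2 share was 20.8%, 19.6% and 21.5% in wild type, 27.4%, 28.2% and 26.7% in saline and 28.7%, 18.9% and 25.0% in treated mutants. The share thus separated the saline groups, while treated hearts covered both ranges; the Nfatc3 share was 41.9% ± 1.45, 37.7% ± 1.36 and 38.8% ± 1.41 (SD, n = 3). The shares add to the whole, so a higher Nfatc2 value alone lowers the others, and Nfatc3 itself differed by -0.01. The Nfatc2 share rests on the same Nfatc2 values as above and is not a separate result. No test was run on these shares.

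Camk2d encodes the delta subunit, the main CaMKII form of the heart, and its groups were separated without passing the test across all genes. Camk2d (chromosome 3, 126596302 to 126846326) read 122, 159 and 147 in wild type, 181, 176 and 186 in saline and 171, 147 and 180 in treated mutants. All 3 saline mutants lay above the wild-type hearts, and treated mutants overlapped both groups, with treated mutant 2 equal to wild type 3. Saline mutant minus wild type was 0.35 (SE 0.115, 95% interval 0.09 to 0.61, adjusted p = 0.123), and it passed in 0 of 17 settings. Across these settings the difference ran from 0.222 (without the 3 libraries with Xist) to 0.431 (without wild type 2). Without wild type 1, the lowest heart, it was 0.242. Treated minus saline mutant was -0.13 (-0.38 to 0.12, adjusted p = 0.794), and treated mutant minus wild type was 0.22 (-0.09 to 0.53, adjusted p = 0.547). Camk2d has 28 annotated transcripts, and its splice forms, which place the kinase in different parts of the cell, are summed in these values.

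Camk2g, the gamma subunit (chromosome 14, 20734875 to 20794088), read 41, 54 and 51 in wild type, 40, 45 and 40 in saline and 40, 47 and 48 in treated mutants, with overlap between all groups. Saline mutant minus wild type was -0.21 (95% interval -0.51 to 0.08, adjusted p = 0.424). The ratio of Camk2d to Camk2g within each library was 2.98, 2.94 and 2.88 in wild type, 4.53, 3.91 and 4.65 in saline and 4.28, 3.13 and 3.75 in treated mutants. Every mutant heart had a higher ratio than every wild-type heart, and the wild-type ratios ran from 2.88 to 2.98 while Camk2d itself ran from 122 to 159 there. The ratio compares libraries, not the number of molecules of the kinases, and no test was run on it. It rests on the same Camk2d and Camk2g values as above and is not a separate result. How often ratios of other gene pairs separate these groups was not examined. Camk2a, another CaMKII subunit, read 34, 39 and 40 in wild type, 30, 30 and 21 in saline and 25, 30 and 33 in treated mutants. It differed from wild type by -0.48 in saline (limma, adjusted p = 0.121) and by -0.36 in treated mutants (adjusted p = 0.325). Camk2a was picked out after its values were seen.

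**Figure D2:**
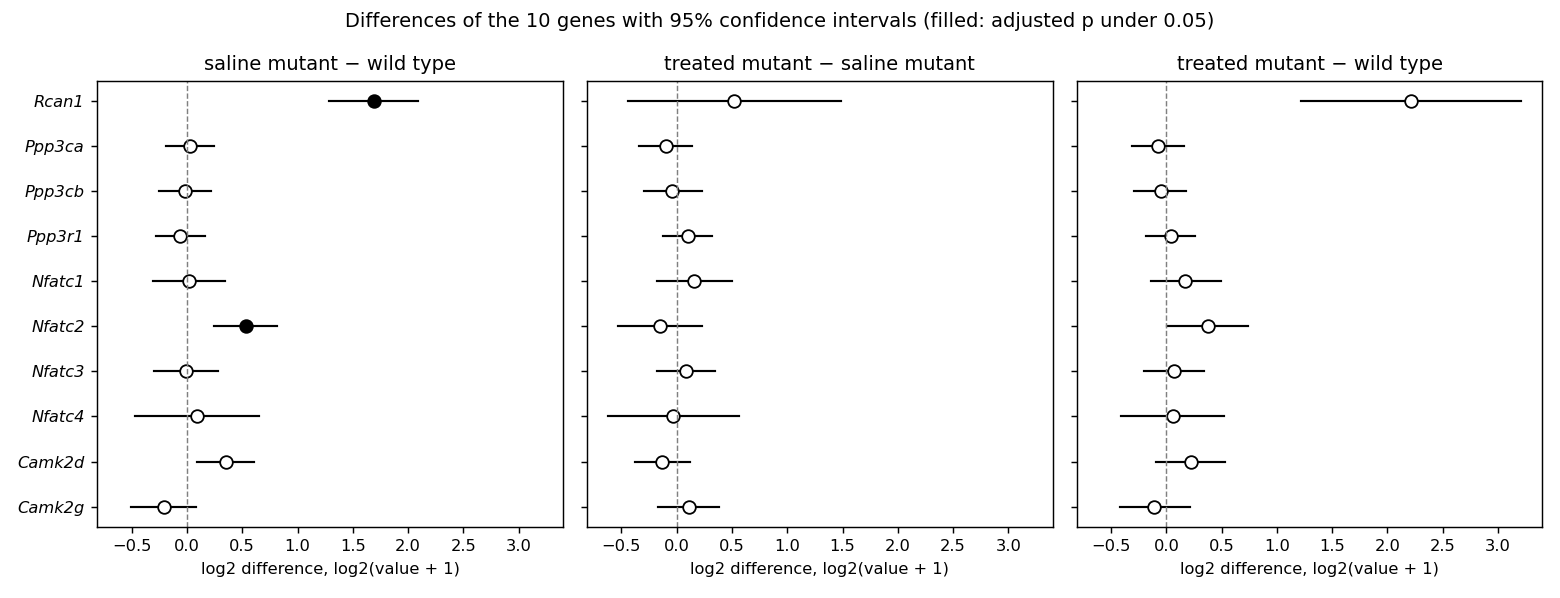
Log2 difference (x axis, log2(value + 1) scale) of the 10 genes in each comparison, with 95% intervals from limma; filled points passed an adjusted p of 0.05. Filled points are Rcan1 (1.69) and Nfatc2 (0.53) in saline mutant minus wild type, and no point is filled in the other panels.

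Counted together, 2 of the 10 genes rose and none fell between saline mutant and wild type, where 7.7% of all 13632 genes tested were called. The groups did not overlap for 3 of the 10 (Rcan1, Nfatc2 and Camk2d, all higher), against 21.6% of all genes. The median difference of the 10 genes was 0.02 and that of all genes 0.07. Between treated and saline mutant 0 of 10 were called by limma, 0 had an unadjusted p under 0.05 and 0 were separated, where 0.0147% of all genes were called (2 of 13636, Mybpc3 and Acta1), 8.29% had such a p and 9.82% were separated. Between treated mutant and wild type 0 of 10 were called, 2 had an unadjusted p under 0.05 (Rcan1 and Nfatc2) and 1 was separated (Rcan1), where 0.989% of all genes were called, 12.5% had such a p and 14.6% were separated. Without Rcan1 the other 9 genes differed by -0.21 to 0.53, -0.15 to 0.16 and -0.11 to 0.38 in the 3 comparisons, with interval bounds from -0.62 to 0.81.

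The other genes of the pathway were read from 7 lists of 86 genes, of which 81 were in the tables and 75 were tested in saline mutant against wild type. Outside the list of hypertrophy output genes, 2 of 65 rose and 4 fell, or 9.23% against 7.7% of all genes, and their median was 0.04. An unadjusted p under 0.05 was found for 15 of the 65 (23.1%), against 19.7% of all genes. None of 3 genes in a list of a further calcineurin subunit and calcineurin B homologous proteins passed. The subunit Ppp3cc (0.24) and the homologous protein Chp1 (-0.12) were at the ends of their range. In the list of 12 genes read as calcineurin regulators 1 fell (8.33%). This was Ppif, the mitochondrial cyclophilin, which is not an established calcineurin regulator. Ppif read 172, 166 and 169 in wild type and 132, 135 and 108 in saline mutants (-0.44, limma, adjusted p = 0.0463). The call was kept in 6 of 17 settings and lost without any 1 of the 6 libraries. Rcan2, a relative of Rcan1, read 410, 463 and 497 in wild type, 469, 500 and 427 in saline and 470, 490 and 468 in treated mutants. Its groups overlapped in every comparison, whereas both mutant groups of Rcan1 lay above wild type. The other ends of this list were Cib1 (0.26), a calcium-binding anchor of calcineurin, and Akap5 (-0.48).

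Of 14 genes for NFAT5, NFAT kinases and Homer proteins, 2 rose and 1 fell (21.4%, against 7.7% of all genes). Their median was 0.22, against 0.07 for all genes. Homer2, a scaffold protein that binds NFAT and competes with calcineurin, read 67, 75 and 86 in wild type, 135, 131 and 121 in saline and 96, 91 and 112 in treated mutants. The treated hearts lay between the saline groups and overlapped neither. Homer2 rose in saline mutants by 0.76 (SE 0.116, adjusted p = 0.00538, 17 of 17 settings), and treated minus saline mutant was -0.37 (adjusted p = 0.439). Dyrk2, a kinase that primes NFAT for export, read 29, 36 and 33, then 45, 45 and 51, then 52, 51 and 46, and rose in saline mutants (0.51, adjusted p = 0.0356). Its call was kept in 9 of 17 settings (adjusted p up to 0.16) and was lost without any 1 of the 6 libraries other than wild type 2. Mapk14, the p38 alpha kinase, read 87, 88 and 85, then 58, 62 and 66, then 78, 77 and 72, and fell in saline mutants (-0.48, adjusted p = 0.0189, 11 of 17 settings, lost without any 1 library other than saline mutant 3). The direction of difference was the same in treated mutants against wild type for all 3, none of which was called there.

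Of 7 other calmodulin kinase and CaMKII inhibitor genes 1 fell (14.3%, against 7.7% of all genes). Camk1 read 71, 79 and 68 in wild type, 51, 50 and 52 in saline and 53, 59 and 64 in treated mutants (-0.50, adjusted p = 0.0192, 13 of 17 settings, lost without wild type 2 or saline mutant 2). Camkk2, a kinase that activates CaMKI, was at the other end with 0.66 (adjusted p = 0.069, called in 5 of 17). None of 10 class II deacetylase, MEF2, CAMTA and GATA4 genes passed in saline mutant against wild type, 1 had an unadjusted p under 0.05, and the list ran from Mef2a (-0.25) to Mef2c (0.32). Of 19 genes for calcium entry and Gq signalling 1 fell (5.26%, against 7.7% of all genes). Adra1b, an alpha-1 adrenergic receptor, read 42, 36 and 38 in wild type, 20, 18 and 13 in saline and 28, 28 and 28 in treated mutants. It fell by 1.16 (SE 0.164, adjusted p = 0.00359, 17 of 17 settings), and the treated hearts lay between the saline groups without overlap (treated minus saline mutant 0.71, adjusted p = 0.274). Plcb1, a phospholipase C that Gq activates, stood at the other end of the list (0.43).

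The hypertrophy output genes, read here beside Rcan1, rose in saline mutants in 8 of 10 cases, where 7.7% of all genes were called. Their median was 2.46, a fitted value for Gdf15 included. Earlier results on these libraries were known when the list was chosen. Acta1, skeletal alpha-actin, read 266, 437 and 597 in wild type, 4810, 4989 and 4824 in saline and 971, 1087 and 841 in treated mutants. Nppb, a natriuretic peptide gene, read 61, 38 and 38, then 344, 477 and 490, then 188, 115 and 78. In both genes the treated hearts lay between the saline groups without overlap. Nppa ranged from 42 to 61, from 356 to 1489 and from 155 to 256 in the same order, and Myh7 from 66 to 100, from 759 to 1364 and from 51 to 307. For these 4 genes and Xirp2 every treated heart lay below every saline mutant, where 9.82% of all genes were separated in either direction. Among them Acta1 alone was called. The adjusted p from limma was 0.139 for Nppb and Xirp2, 0.214 for Myh7 and 0.253 for Nppa. Other output genes overlapped between the mutant groups, as Rcan1 did: Fhl1 read 252, 198 and 277 in saline and 283, 184 and 204 in treated mutants, and Ankrd1 1811, 2695 and 3291, then 2897, 1727 and 1594. Gdf15 was listed at 0 in all wild-type hearts, at 3, 4 and 6 in saline mutants and at 11, 3 and 3 in treated mutants. Edn1, endothelin-1, had the smallest difference of the list (0.19).

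Treated minus saline mutant called 1 of the 10 output genes, Acta1 (-2.34, SE 0.127, adjusted p = 0.000254), with a list median of -0.67, and 0 of the other 65 genes by limma. Of these 65, 5 had an unadjusted p under 0.05 (7.69%, against 8.29% of all genes). Treated mutant minus wild type called 5 of the 10 as higher, with a median of 1.31: Nppa (1.98), Ankrd1 (1.87), Xirp2 (1.55), Fhl1 (0.96) and Gdf15, whose fitted value has no base in wild type. It called 0 of the other 65, of which 11 had an unadjusted p under 0.05 (16.9%, against 12.5% of all genes). The 5 calls are not firm: leaving out 1 library in turn gave 0 to 4, with 0 after removal of any of the 3 wild-type hearts, 1 without treated mutant 1 or 2, and 8 came from 1 fit of all groups.

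**Figure D3:**
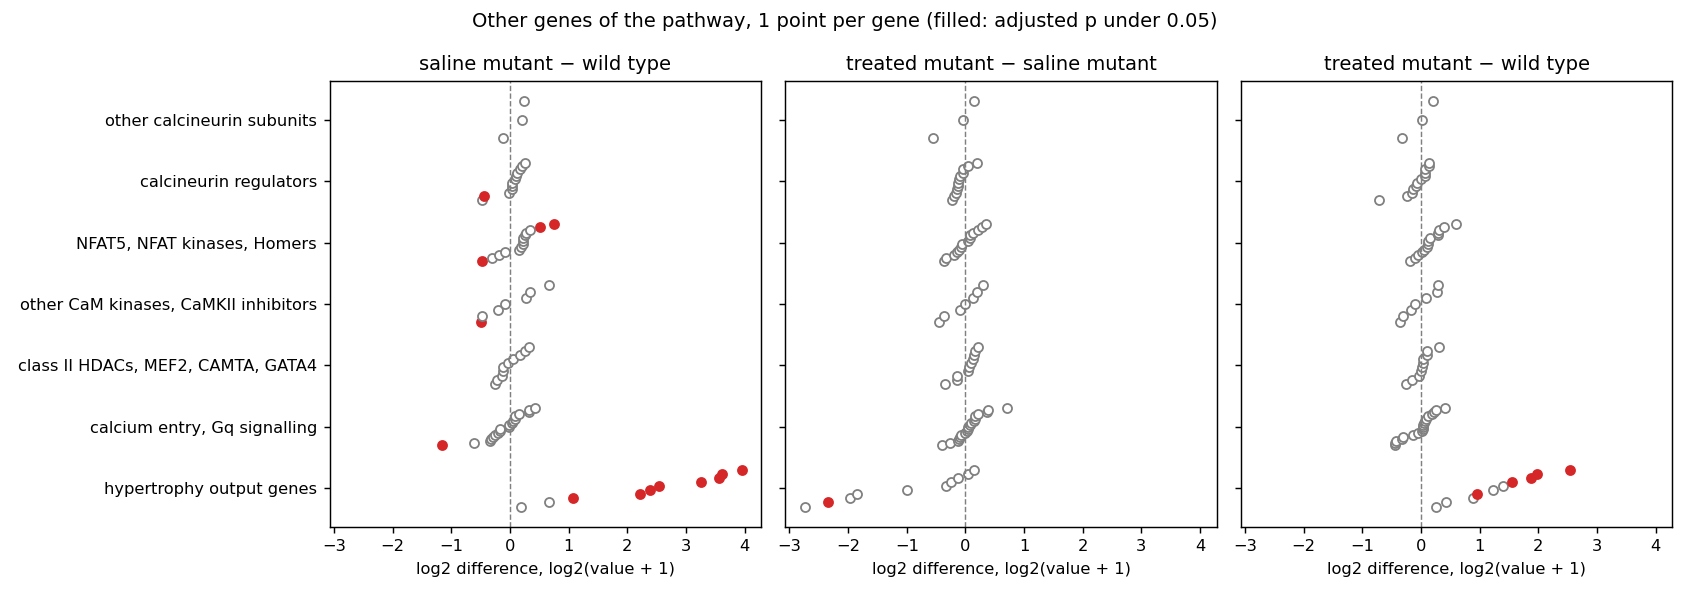
Log2 difference (x axis, log2(value + 1) scale) of each tested gene of the 7 pathway lists (rows) in the 3 comparisons, with filled points for an adjusted p under 0.05. Filled points to the right in the first panel are 8 output genes with Homer2 and Dyrk2; Adra1b (-1.16) is the lowest filled point there.

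The genes whose pattern over the 9 libraries lay nearest to that of Rcan1 were Thbs1, Abra and Cdkn1a. Likeness was the mean absolute difference of log2(value + 1), centred on the gene's mean over 9 libraries, among the 8785 genes that averaged 10 or more. It was 0.256 for Thbs1, 0.289 for Abra and 0.296 for Cdkn1a, where the mean absolute deviation of Rcan1 itself was 0.894. Thbs1, the matrix protein thrombospondin-1, read 12, 17 and 7 in wild type, 51, 31 and 32 in saline and 124, 42 and 33 in treated mutants. Abra, an actin-binding protein of striated muscle, read 27, 21 and 21, then 122, 69 and 66, then 273, 282 and 53. Cdkn1a, a cell-cycle inhibitor, read 37, 23 and 46, then 113, 93 and 76, then 190, 166 and 74. In each of them, as in Rcan1, saline mutant 1 was the highest saline mutant and treated mutant 3 the lowest treated heart. These genes were selected for likeness to Rcan1, so the shared order is a description and carries no test. Their largest difference from Rcan1 in a single library was 0.509 for Thbs1, 1.013 for Abra and 0.724 for Cdkn1a.

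Camk2d varied much less, with a mean absolute deviation of 0.157. Its nearest genes were Ccdc71l at 0.057, Exoc1, a subunit of the exocyst tether, at 0.059 and Kpna3, a nuclear import receptor, at 0.063. Kpna3 read 77, 89 and 88 in wild type, 104, 100 and 106 in saline and 86, 85 and 96 in treated mutants. Wild type 1 was the lowest library in all 4 genes, Ccdc71l (19) and Exoc1 (15) included. None of these 3 genes was called in any comparison. They were selected for this likeness, so it is a description and carries no test.

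**Figure D4:**
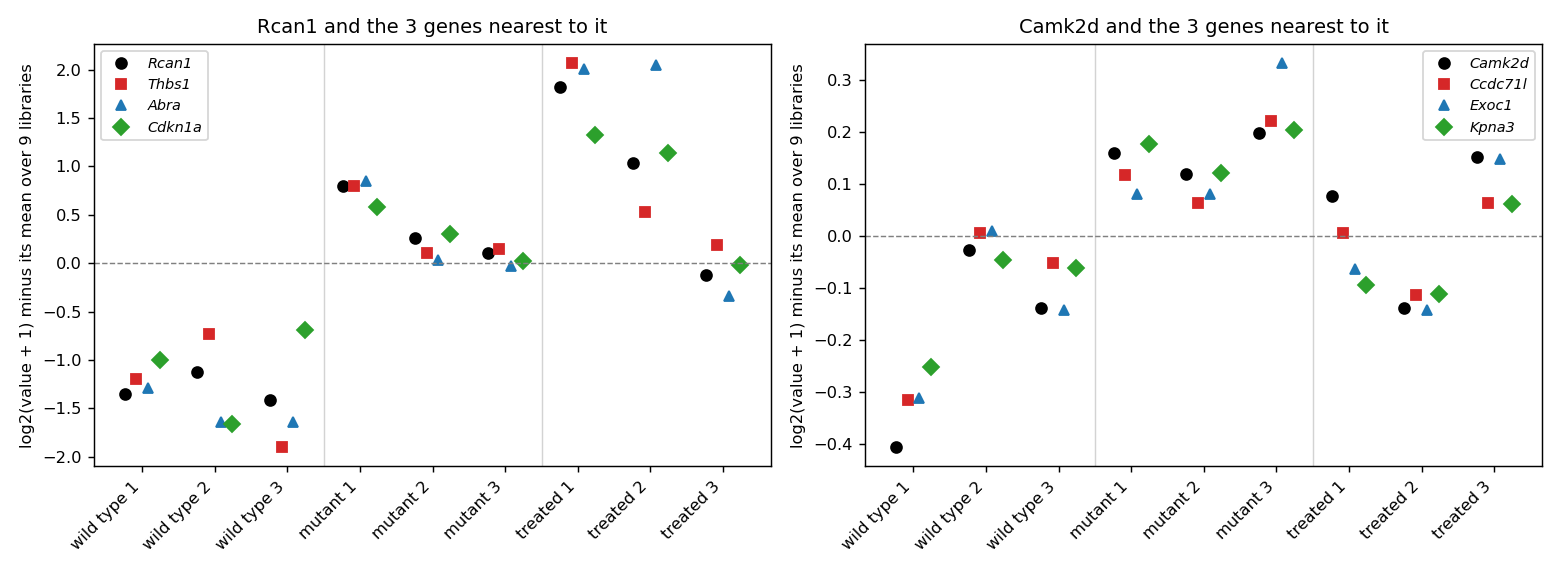
Centred log2(value + 1) (y axis) of Rcan1 (left) and Camk2d (right) with the 3 genes nearest to each, in the 9 libraries (x axis, 3 per group); each point is a library value and the y axes differ. On the left all wild-type points lie below 0 and the treated libraries spread the most; on the right wild type 1 has the lowest point of each gene.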

How the data were processed

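Values per gene and library are scores as the authors deposited them, whole numbers on a per-million scale; per the submitters' processing notes HISAT2, HTSeq, DESeq2 and the build mm10 were used, with versions and roles not given in the sources used here. The deposited tables also hold the authors' mean signal per gene, log2 fold changes with standard errors, a test score and p-values; their adjusted p-value column equals the unadjusted normal p of that score. No value differed between tables. Median values rose with transcript length, from 12.0 at a median length of 1468 bases to 27.56 at 6378 bases.

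Pairs of groups were compared with limma 3.58.1 (R 4.3.3) on log2(value + 1), each in its own fit of genes with a mean of at least 1. Residual variances were floored at the rounding variance and the prior degrees of freedom came from genes with a mean of at least 30. Benjamini-Hochberg adjustment ran over all genes; an adjusted p under 0.05 was called. A fold change on this scale understates that of low genes. The code was tested on simulated data. The 10 members, the lists, the tests and the naming rule were chosen with earlier results of these data known. Named were the members, pathway genes called in any comparison, the highest and lowest gene of each list in saline mutant against wild type, the 3 genes nearest to Rcan1 and Camk2d, and Mybpc3; Rcan2, Camk2a and markers were added. There were 17 alternative settings per comparison. All members but Nfatc2, Nfatc4 and Camk2g overlap another annotated gene, and whether counting used strand is not given in the sources used here. Coordinates are from the GRCm38 annotation, and promoter windows from RefSeq.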

Additional observations from a re-analysis of the deposited data

How the results depend on the processing

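The number of members called in saline mutant against wild type (2) fell to 1, Rcan1 alone, with the replicate block, with all 3 groups in one fit and without the 3 libraries with Xist, and was 1 to 2 when 1 library was left out. In treated mutant against wild type (0) it was 1 with a prior estimated over every gene and with all groups in one fit, and 0 to 1 with 1 library left out. Lower pathway genes in saline mutant against wild type (4) were 1 with the replicate block, 2 without the libraries with Xist and 1 to 3 with 1 library left out. Lower pathway genes in treated against saline mutant (1) were 3 with the replicate block, 2 with a prior over every gene and 1 to 2 with 1 library left out. Higher pathway genes in treated mutant against wild type (5) were 3 with a pseudocount of 0.1 or 5 or no filter, 2 with the replicate block, 1 with limma's trend and no rounding floor, 8 with all groups in one fit, 2 without the libraries with Xist and 0 to 4 with 1 library left out. Leaving out libraries also means fewer samples; the cause of the other shifts was not tested.

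Over all genes the calls were 1050, 2 and 134 in the 3 comparisons, and 819, 30 and 35 with the replicate block, 858, 32 and 77 with limma's trend and no floor, 1281, 10 and 169 with median-of-ratios factors, and 556, 2 and 9 without the libraries with Xist. Without 1 library in turn they were 506 to 1029, 2 to 8 and 1 to 133. Upper-quartile factors turned the split between higher and lower from 622 and 428 to 622 and 684 in saline mutant against wild type, with 116 and 46 for 117 and 17 in treated mutant against wild type. The replicate numbers showed no pairing common to the 3 comparisons. Deviations of same-numbered libraries correlated over 8786 genes at -0.229, -0.104 and -0.37, at -0.07, 0.197 and 0.12, and at 0.566, 0.15 and 0.027. Differently numbered libraries ran from -0.066 to 0.284, from -0.256 to 0.067 and from -0.387 to 0.342 in the same order. The highest value, 0.566, was that of wild type 1 with treated mutant 1.

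Signs turned for differences that were not called, Rcan1 (0.52) and Thbs1 (0.58) in treated against saline mutant among them. In saline mutant against wild type, median-of-ratios and upper-quartile factors gave Ppp3ca -0.045 and -0.068 and Nfatc1 -0.054 and -0.077; without the libraries with Xist, Ppp3cb was 0.011, Nfatc1 -0.138, Nfatc4 -0.096 and Edn1 -0.208. In treated against saline mutant, median-of-ratios factors gave Ppp3cb 0.004 and Nfatc4 0.006, and a pseudocount of 5 gave Edn1 -0.001; without the libraries with Xist, Rcan1 was -0.075, Ppp3cb 0.01, Nfatc4 0.389, Akap5 0.161, Gdf15 -0.161 and Thbs1 -0.093. In treated mutant against wild type, upper-quartile factors gave Ppp3r1 -0.042, Nfatc3 -0.008, Nfatc4 -0.015, Chp1 -0.062, Kpna3 -0.008 and Plcb1 -0.043; without the libraries with Xist, Ppp3ca was 0.001, Ppp3cb 0.02, Ccdc71l -0.002 and Mef2c 0.019. Leaving out 1 library gave, in saline mutant against wild type, Ppp3ca -0.013 to 0.049, Ppp3cb -0.079 to 0.045, Nfatc1 -0.092 to 0.106, Nfatc3 -0.087 to 0.074, Nfatc4 -0.165 to 0.272 and Edn1 -0.261 to 0.607. It gave, in treated against saline mutant, Ppp3cb -0.109 to 0.024, Nfatc2 -0.279 to 0.001, Nfatc4 -0.215 to 0.222, Akap5 -0.437 to 0.063, Edn1 -0.358 to 0.511, Fhl1 -0.307 to 0.002, Gdf15 -0.376 to 0.416, Mef2a -0.002 to 0.273 and Ppp3cc -0.102 to 0.019. In treated mutant against wild type it gave Ppp3r1 -0.008 to 0.081, Nfatc3 -0.004 to 0.157, Nfatc4 -0.082 to 0.223, Mef2a -0.258 to 0.019, Mef2c -0.178 to 0.115 and Plcb1 -0.208 to 0.239. Of the members' results 459 kept their direction and side of the threshold, 37 turned sign, 8 lost the call and 3 gained it. Read depth is unknown, so what it limits cannot be stated.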
